A study of Vitis vinifera and Vitis quinquangularis with 24 samples.

Results

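A set of 122 gene models was examined whose messenger RNA fell in berry skin between softening and colouring in the wine grape Cabernet Sauvignon (Vitis vinifera), but only between colouring and ripeness in Danfeng-2, an accession of the wild Chinese grape Vitis quinquangularis. They are 122 of 27711 models in all. The members were chosen by their measured levels in CPM, the count scaled to the library total. The level m of a group was the median over its 3 libraries of log2(CPM + 1). A member had m at colouring at least 2 below m at softening in Cabernet Sauvignon. In Danfeng-2 its m at colouring was less than 1 below the green stage and less than 0.5 below softening, and m at ripeness was at least 2 below colouring. These contrasts are therefore described and not tested.

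Berry skin of both grapes was sampled at 4 stages of the Eichhorn-Lorenz scale, with 3 libraries for each of the 8 combinations, 24 in all. They were E-L 33 (hard green berries), E-L 34 (softening), E-L 35 (colouring) and E-L 38 (ripe for harvest), called here the green stage, softening, colouring and ripeness. The labels name no treatment and leave unsaid if libraries of a group are separate vines, so the p-values describe the spread between libraries alone, which may be technical. Each grape stands for 1 genotype. The title of the series names resveratrol in the skin as its interest.

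Veraison is the onset of ripening in the grape berry, when a hard green fruit softens, loses chlorophyll, takes up sugar and, in red grapes, makes anthocyanins in the skin. Many genes of the green berry, among them those of photosynthesis, cell growth and tannin synthesis, are known to be turned down around that time. No gene names come with the identifiers in the files, and 0 of 27711 identifiers matched the RefSeq table of names, so members are given by identifier and no function is assigned to them. Skin markers could not be looked up for the same reason, and the labelled tissue was not checked. Positions are those of the files; the sources used here do not give the build.

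Total counts per library ran from 13201295 to 23095568. In 3 libraries many models departed from their partners: Cabernet Sauvignon softening replicate 3, Danfeng-2 green replicate 1 and Danfeng-2 colouring replicate 1. The last of these touches the members most and is described in its own paragraph. Both species were counted on 1 set of models, and whether reads of Danfeng-2 align to it less well was not tested. In bulk skin, fewer cells of a type and less RNA per cell cannot be told apart.

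In Cabernet Sauvignon the members stood on a high level, dropped once and stayed down. The median of m over the 122 members was 5.18 at the green stage and 5.27 at softening, then 2.37 at colouring and 2.39 at ripeness. In Danfeng-2 it was 5.02, 5.04 and 5.16 at the green stage, softening and colouring, and 1.96 at ripeness. The members' median in Danfeng-2 at colouring was thus near that in Cabernet Sauvignon at softening. Between those groups the median difference was -0.15, with a range from -4.68 to 4.65 and 72 of 122 members within 1. The share within 1 was not counted over all models. At colouring itself Danfeng-2 exceeded Cabernet Sauvignon by a median of 2.58 and in 121 of 122 members. The groups of both contrasts entered the rule.

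**Figure D1:**
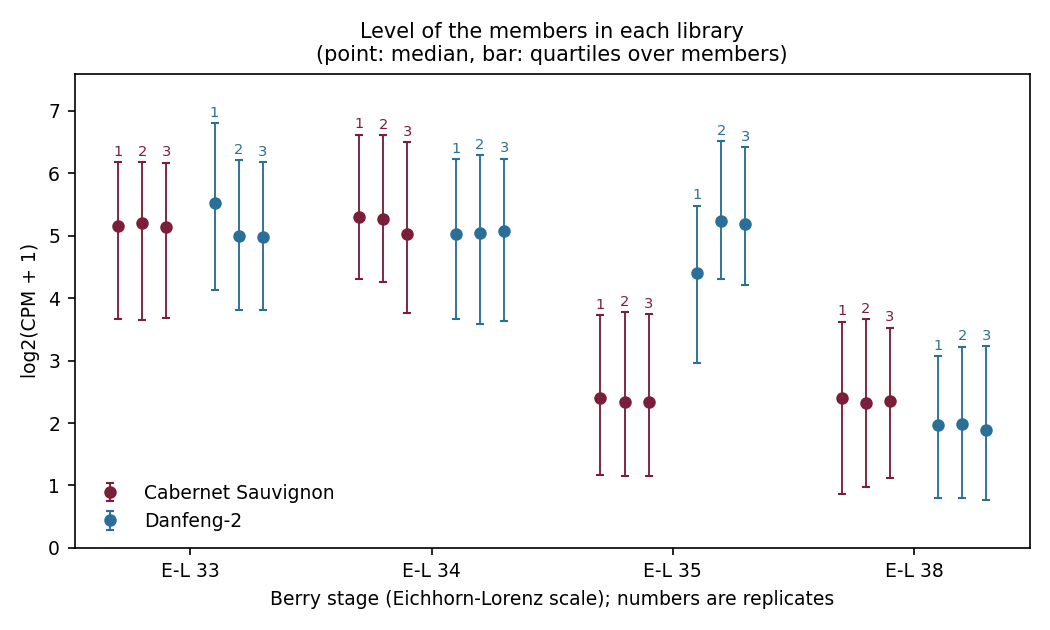
Level of the 122 members in each of the 24 libraries. The horizontal axis gives the stage and the vertical axis log2(CPM + 1); points are medians and bars quartiles over members, and small numbers are replicates. The 3 Cabernet Sauvignon libraries at colouring lie between 2.33 and 2.40, and Danfeng-2 replicates 2 and 3 at 5.24 and 5.18 with replicate 1 at 4.41.

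The fall from softening to colouring in Cabernet Sauvignon had a median of -2.70 on the log2(CPM + 1) scale and ran from -7.20 to -2.0. The late fall in Danfeng-2 had a median of -2.96 and ran from -6.66 to -2.0. Over 16385 models that averaged 1 CPM or more the median changes were -0.07 and -0.28. Scaling by TMM, edgeR's trimmed mean of M-values, differed from scaling by library totals by 0.15 and 0.29 (log2) in these contrasts. On the log2(CPM + 1) scale it moved the members' medians to -2.61 and -2.69 and the medians over all those models to 0.04 and -0.03. The sizes of the falls in the 2 grapes were weakly related across members, with Pearson's r = 0.17 over 122 members, which share libraries within each grape and an upper limit of -2 on both axes.

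The members took 1.31% to 1.33% of all counts in Cabernet Sauvignon at the green stage and 1.81% to 2.20% at softening. They took 0.234% to 0.246% at colouring and 0.225% to 0.241% at ripeness. In Danfeng-2 the share was 1.27% to 1.67% at the green stage, 1.40% to 1.42% at softening, 0.885%, 1.43% and 1.42% at colouring, and 0.168% to 0.173% at ripeness. A single model, VIT_14s0060g00690, gave 23.7% of the members' summed CPM in Danfeng-2 at colouring, and the 10 highest members gave 56.6%. Of the 122 members, 29 had a median above 100 CPM in that group and 19 a median below 10 CPM.

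The threshold cut through a continuous range of changes. In Cabernet Sauvignon the members nearest to it had changes of -2.001, -2.006 and -2.008, and the nearest models that met every other condition had -1.999, -1.989 and -1.962. In Danfeng-2 the members nearest to it had -2.002, -2.007 and -2.012, and the nearest models outside had -1.996, -1.989 and -1.971. Of all 27711 models, 943 (3.40%) fell by 2 or more from softening to colouring in Cabernet Sauvignon. In Danfeng-2, 122 of these (12.9%) held to colouring and then fell, 69 had already fallen by 2 or more between the green stage and colouring, and 252 (26.7%) that were in neither set ended less than 1 below their green level. The other 500 (53.0%) came under none of these headings. Seen from Danfeng-2, 593 models held to colouring and then fell by 2 or more. In Cabernet Sauvignon, 122 of the 593 (20.6%) fell by 2 or more from softening to colouring, 121 fell by 1 to 2, 212 changed by less than 1 and 138 rose by 1 or more.

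The stages before the fall were not alike in the 2 grapes. In Danfeng-2, m at the green stage, softening and colouring lay within 0.5 of one another in 48 members and within 1 in 84. Flatness was not particular to the members. From the green stage to colouring 50.8% of them stayed within 0.5, against 62.7% of the models that averaged 1 CPM or more. From softening to colouring 81.1% stayed within 1, against 90.9%. The rule also bars a clear fall to colouring. The highest of the 3 stages was the green stage in 36 members, softening in 30 and colouring in 56, and in 11 members colouring exceeded both earlier stages by more than 1. In Cabernet Sauvignon the highest stage was softening in 82 members and the green stage in 40. There m rose by more than 1 from the green stage to softening in 37 members, fell by more than 1 in 8 and stayed within 1 in 77. The last is 63.1% of the members, against 83.3% of the models that averaged 1 CPM or more.

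**Figure D2:**
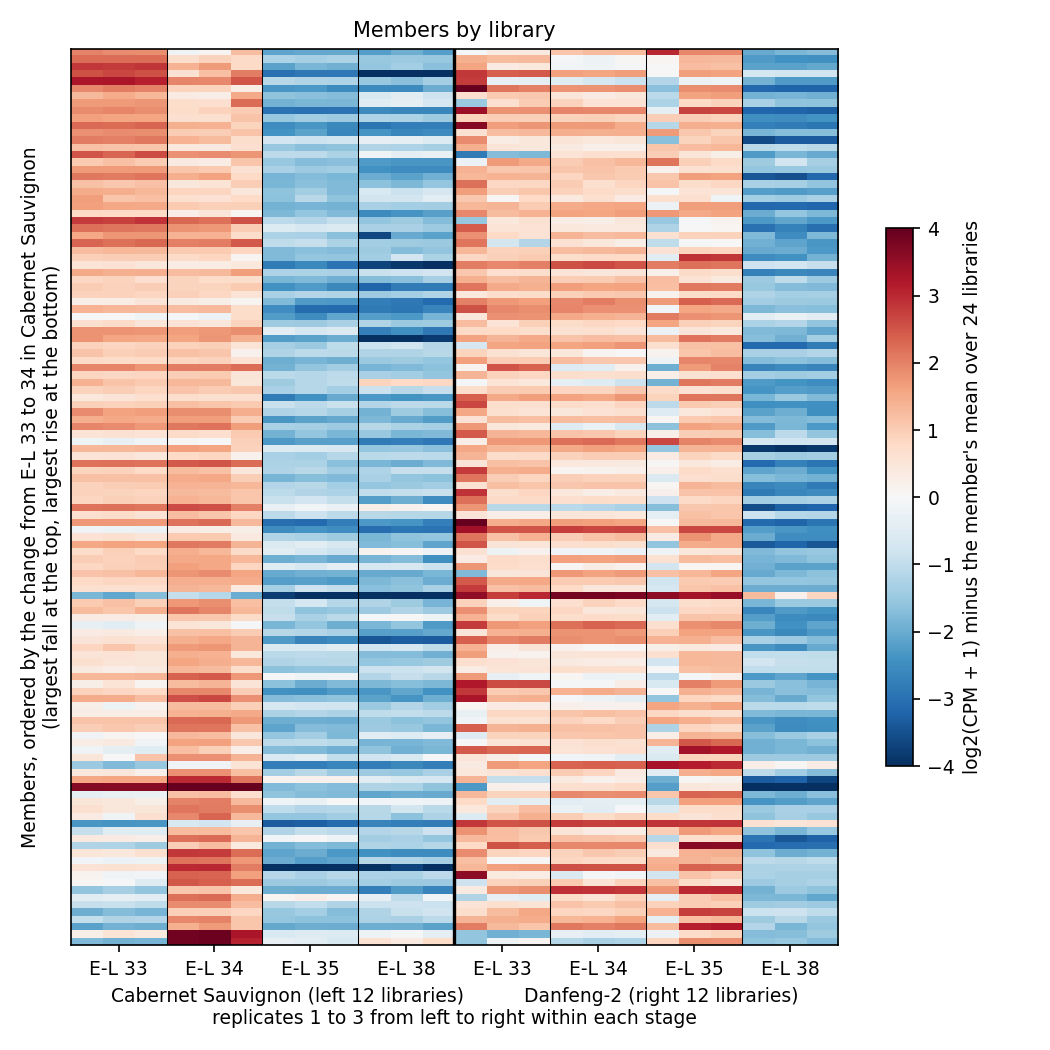
Every member in every library. Each row is 1 of 122 members, ordered by its change from the green stage to softening in Cabernet Sauvignon; each column is 1 of 24 libraries, and colour gives log2(CPM + 1) minus the member's mean over all libraries. The first 6 columns of Cabernet Sauvignon and the first 9 of Danfeng-2 are mostly red, and the first of the 3 Danfeng-2 columns at E-L 35 is paler than its partners.

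The whole span from the green stage to ripeness in Cabernet Sauvignon is the one comparison in which neither group entered the rule, although each adjoins a stage that did. The members ended lower than they began: 105 of 122 were called lower, 2 were called higher and 15 were not called. A call needed a Benjamini-Hochberg adjusted p below 0.05 over all 18375 models tested, from edgeR's quasi-likelihood test, and a change of at least 2-fold. All 122 members were tested, but the rule itself asks for at least 3 CPM in 2 groups, so that passing the filter on low counts is no finding. Of all models tested, 41.0% were called in this comparison, 23.2% lower and 17.8% higher. The members' median log2 fold change was -2.56 against 0.00 for all models tested. Without the 3 libraries that stood apart, the counts were 105 lower and 2 higher. In 114 of 122 members the lowest green library lay above the highest ripe library. That count was not made over all models tested, so nothing particular to the members is read from it.

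The other models that fell from softening to colouring in Cabernet Sauvignon also ended mostly lower. Of the 69 that had fallen by colouring in Danfeng-2, 67 (97.1%) were called lower from the green stage to ripeness in Cabernet Sauvignon. The count was 156 of 252 (61.9%) for those without a fall in Danfeng-2 and 444 of 500 (88.8%) for the remainder, beside 86.1% of the members. The differences between these shares were not tested.

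VIT_15s0021g02300 (chromosome 15, 13256926 to 13258957) was among the members called lower. Its CPM in Cabernet Sauvignon was 48.1, 49.98 and 47.2 at the green stage, 21.2, 23.9 and 25.9 at softening, 0.704, 0.669 and 0.691 at colouring, and 1.24, 1.16 and 1.17 at ripeness. The green and ripe libraries stood far apart, and the log2 fold change between them was -5.09 ± 0.65 (SE, n = 3 a group, edgeR adjusted p = 1.1e-06). In Danfeng-2 it had 140.8, 45.1 and 45.6 CPM at the green stage, 50.01, 48.7 and 49.0 at softening, and 9.26, 85.7 and 84.0 at colouring, then 0.466, 0.446 and 0.379 at ripeness. Replicate 1 stood apart at the green stage and again at colouring, once above and once below its partners.

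VIT_18s0001g14260 (chromosome 18, 12273788 to 12276775) was abundant in Cabernet Sauvignon and much less so in Danfeng-2. Its CPM in Cabernet Sauvignon was 1984, 1944 and 1936 at the green stage, 5200, 5416 and 3807 at softening, 44.6, 48.3 and 45.6 at colouring, and 66.5, 63.8 and 49.3 at ripeness. The change over the span was -4.78 ± 0.58 (log2, SE, edgeR adjusted p = 5.8e-07). Danfeng-2 had 30.4, 175.6 and 175.4 CPM at the green stage, 243.7, 246.8 and 265.5 at softening, 32.8, 213.3 and 202.3 at colouring, and 3.59, 3.87 and 2.80 at ripeness. It was far below Cabernet Sauvignon at both ends of the span. The difference from Cabernet Sauvignon was -4.05 ± 0.56 at the green stage and -4.20 ± 0.61 at ripeness (log2, SE). The rule had used the Danfeng-2 libraries of both stages, so no p is given. This model overlaps another, so reads may be split between them, and whether counting used strand is not stated.

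Both members called higher over the span had been almost absent in hard green Cabernet Sauvignon berries and peaked at softening. VIT_19s0177g00030 (chromosome 19, 5864376 to 5868916) had 0.211, 0.115 and 0.137 CPM at the green stage, from 7 counts in the 3 libraries together. It had 58.4, 61.1 and 34.0 CPM at softening, 2.31, 2.01 and 1.70 at colouring, and 5.22, 4.24 and 5.79 at ripeness. The log2 fold change from the green stage to softening was 8.37 ± 0.59 (SE). The rule asks for a high level at softening, which favours such a rise, so no p is given for it. From the green stage to ripeness the change was 5.24 ± 0.62 (edgeR adjusted p = 4e-07). Both members were named for their call in this comparison, so the p-values given for it are those that chose them. With limma on log2(FPKM + 1), a scale that understates changes of low models, the change to ripeness was 2.36. In Danfeng-2 it had 0.386, 2.58 and 3.41 CPM at the green stage, 0.843, 0.656 and 0.758 at softening, 6.51, 13.9 and 13.5 at colouring, and 0.333, 0.446 and 0.227 at ripeness. It was there a model of low level with its highest libraries at colouring.

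The other was VIT_18s0001g12900 (chromosome 18, 10991640 to 11003162), which rose from 0.772, 1.10 and 0.893 CPM at the green stage to 12.3, 12.5 and 11.2 at softening and ended at 1.99, 2.76 and 2.99, a change over the span of 1.71 ± 0.36 (edgeR adjusted p = 0.00034). Its Danfeng-2 levels were 10.2, 15.5 and 19.3 CPM at the green stage, 11.7, 11.3 and 12.3 at softening, 16.99, 45.6 and 44.0 at colouring, and 2.79, 2.90 and 2.42 at ripeness. It overlaps VIT_18s0001g12880, another member.

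**Figure D3:**
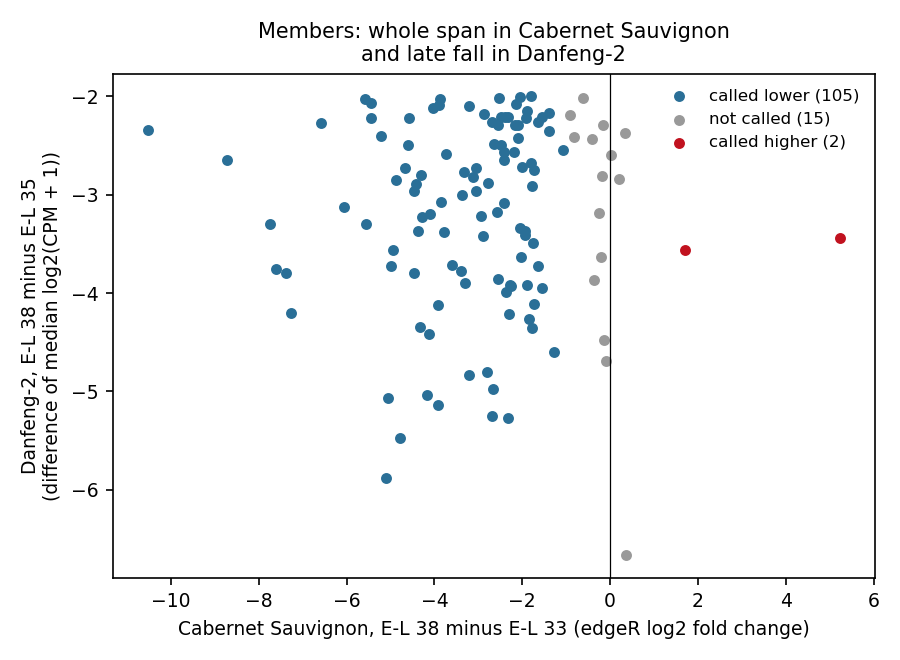
Whole-span change in Cabernet Sauvignon against the late fall in Danfeng-2. The horizontal axis is the edgeR log2 fold change of ripeness over the green stage, the vertical axis the difference of m between ripeness and colouring; each point is 1 of 122 members, coloured by its call. The 105 members called lower lie left of the line at 0, and the 15 not called lie between -0.91 and 0.36.

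After colouring most members stayed near their low level in Cabernet Sauvignon, though a larger share was called than over all models. From colouring to ripeness, a comparison that shares the colouring libraries with the rule, 23 of 122 members were called, 9 higher and 14 lower. Over all models tested 10.6% were called, 3.63% higher and 6.98% lower. The larger share was not particular to the members, of whom 7.38% were called higher and 11.5% lower. Among the other models of the early fall, those without a fall in Danfeng-2 had 12.7% higher and 11.1% lower. The shares were 5.2% and 13.6% for the remainder, and 5.80% and 8.70% for those that had fallen by colouring in Danfeng-2. In m, 109 members (89.3%) lay within 1 between these stages and 78 (63.9%) within 0.5, against 92.5% and 73.4% of the models that averaged 1 CPM or more. Without the 3 libraries that stood apart, 11 members were called higher and 18 lower. Of the 105 members that ended lower than at the green stage, 86 were not called from colouring to ripeness, 14 fell further and the rest rose. The same count was not made over all models tested. With limma on log2(FPKM + 1) 13 members were called in place of 23.

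The softening step gave more rises than falls in Cabernet Sauvignon. From the green stage to softening, which shares the softening libraries with the rule, 31 members were called higher and 4 lower, 35 in all. The shares over all models tested were 19% called, 7.42% higher and 11.6% lower. The rule asks for a high level at softening, a choice that favours such rises. Without the 3 libraries that stood apart, 41 were called higher and 8 lower.

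In Danfeng-2 the same step gave 25 calls among the members, 9 higher and 16 lower. Over all models tested 10.3% were called, 3.39% higher and 6.92% lower, and both groups had entered the rule. The balance of directions rests on the libraries that stood apart: without them 10 members were called higher and 9 lower, and without Danfeng-2 green replicate 1 alone 16 were called in all. Of the 31 members called higher in Cabernet Sauvignon, 5 were called higher in Danfeng-2 too, 22 were not called there and the rest were called lower. In 74 of 122 members no call was made in either grape. Such joint counts were not made over all models tested, so they are a description of the members alone.

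VIT_18s0001g09910 (chromosome 18, 8278107 to 8279654) was called higher in both. In Cabernet Sauvignon it had 15, 18.7 and 16.9 CPM at the green stage, 193.7, 202.3 and 130.3 at softening, and 7.88, 8.39 and 8.35 at colouring. In Danfeng-2 it had 3.54, 2.58 and 2.77 at the green stage, 9.69, 9.18 and 9.51 at softening, 10.6, 21.3 and 24.3 at colouring, and 3.06, 3.12 and 4.09 at ripeness. The green and softening libraries did not overlap in either grape, and the log2 fold changes were 3.42 ± 0.24 (SE) and 1.69 ± 0.26. The softening libraries of both grapes and the green ones of Danfeng-2 entered the rule, so no p is given.

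VIT_13s0019g02130 (chromosome 13, 3437319 to 3443795) was called higher at this step in Danfeng-2 and not in Cabernet Sauvignon. Its CPM there was 0.386, 1.96 and 1.81 at the green stage, 13.5, 14.6 and 14.6 at softening, 18.2, 12.7 and 10.7 at colouring, and 1.06, 1.79 and 1.44 at ripeness. The step was a log2 fold change of 3.35 ± 0.30 (SE). Both Danfeng-2 groups entered the rule, and the model was named for its rise to colouring there, so no p is given. In Cabernet Sauvignon it was highest at the green stage, with 55.1, 48.5 and 58.5 CPM, then 33.8, 35.8 and 32.1, then 3.78, 3.77 and 3.08, and 8.02, 6.69 and 7.16 at ripeness. The log2 fold change from the green stage to softening there was -0.63, short of a 2-fold change. Its softening libraries entered the rule, so no p is given for it either. The difference between the steps was not tested.

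The plateaus of the 2 grapes were compared in hard green berries. At the green stage the median difference in m, Danfeng-2 minus Cabernet Sauvignon, was -0.02, with a range from -4.32 to 4.88, and 78 members lay within 1. By edgeR 28 members were called higher in Danfeng-2 and 15 lower, 43 of 122. Over all models tested 28.2% were called, 13.5% higher and 14.6% lower, and the green Danfeng-2 libraries had entered the rule. Without the 3 libraries that stood apart the calls were 22 higher and 24 lower, so no direction is read from them. Across members, levels at the green stage in the 2 grapes had Pearson's r = 0.73 (n = 122 members, which share libraries).

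The ripe berries of the 2 grapes were compared as a description only, because the members were chosen for low levels in the ripe Danfeng-2 libraries. At ripeness 43 members were called lower in Danfeng-2 than in Cabernet Sauvignon and 17 higher, 60 of 122. Over all models tested 31.6% were called, 16.3% lower and 15.3% higher, and the median log2 fold change was -0.67 for members against -0.03. The rule asks for a fall of at least 2 at ripeness in Danfeng-2 and sets nothing there in Cabernet Sauvignon, so no direction is read from these calls. Values of single members at ripeness, and of the interaction below, are likewise given with no p. Without the 3 libraries that stood apart 51 were called lower and 18 higher. Neither at the green stage nor at ripeness was a difference called in 42 members. Of the others, 10 were called higher in Danfeng-2 at both stages, 9 lower at both, and 4 higher at the green stage and lower at ripeness, while 0 went the other way. These joint counts were not made over all models tested, so nothing particular to the members is read from them.

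The difference between the whole-span changes of the 2 grapes was fitted as an interaction of grape and stage. It was called in 58 of 122 members. In 42 the change in Danfeng-2 was the more negative and in 16 the less negative or more positive. Over all models tested 30.6% were called, 16% and 14.6% in these directions, and the median was -0.81 for members against -0.11. Both Danfeng-2 groups in this contrast entered the rule, which favours a steep change there, so these counts are no independent result. Without the 3 libraries that stood apart, 45 members were called on the more negative side and 24 on the other.

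VIT_02s0033g01030 (chromosome 2, 16140685 to 16142942) had the largest late fall among the members and was named for it, so its low ripe level is a description. Its CPM in Danfeng-2 was 21.6, 75.9 and 69.1 at the green stage, 48.9, 48.8 and 48.2 at softening, 19.96, 164.4 and 160.4 at colouring, and 0.532, 0.595 and 0.606 at ripeness. In Cabernet Sauvignon it had 4.70, 4.56 and 3.85 at the green stage, a short peak of 25, 29.6 and 16.1 at softening, then 2.56, 2.98 and 2.77, and 4.66, 4.50 and 5.01 at ripeness. It was higher in Danfeng-2 at the green stage, by 3.56 ± 0.56 (log2, SE), and lower at ripeness, with a difference of -3.10 ± 0.77. The rule had used the Danfeng-2 libraries of both stages, so no p is given for these. The change from the green stage to ripeness in Cabernet Sauvignon was 0.36 ± 0.57 (edgeR adjusted p = 0.6). The difference of the span changes was -6.66 ± 0.93. This model lies within the span of VIT_02s0033g01000, another member on the same strand, so reads may be split between them.

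VIT_17s0000g05070 (chromosome 17, 5544301 to 5548234) had overlapping levels in the grapes until softening. Cabernet Sauvignon had 1103, 1107 and 1122 CPM at the green stage and 1355, 1311 and 823.4 at softening, then 297.2, 293.1 and 282.9 at colouring and 148.6, 151.5 and 137.7 at ripeness. Danfeng-2 had 1268, 1100 and 1061 at the green stage, 1246, 1363 and 1303 at softening, 149.0, 1134 and 1152 at colouring, and 29.0, 26.3 and 28.9 at ripeness. At ripeness the groups did not overlap, and the difference was -2.46 ± 0.44 (log2, SE). The difference of the span changes was -2.41 ± 0.59, and this model overlaps another.

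VIT_14s0060g00690 (chromosome 14, 593133 to 600665) had the highest level of all members in Danfeng-2 at colouring, also per length, at 3241 ± 226 FPKM (SD, n = 3). FPKM is fragments per kilobase of model length, scaled to library depth. Its CPM in Danfeng-2 was 1456, 3172 and 3185 at the green stage, 3842, 4050 and 3963 at softening, 3146, 2921 and 2789 at colouring, and 519.9, 497.7 and 498.3 at ripeness. In Cabernet Sauvignon it was 2170, 2196 and 2198, then 4653, 4761 and 5048, then 730.8, 780.6 and 734.6, and 878.2, 895.0 and 852.2 at ripeness. Danfeng-2 replicate 1 was below its partners at the green stage and above them at colouring. Over the span in Cabernet Sauvignon it fell by 1.08 ± 0.17 on the log2 scale (SE, edgeR adjusted p = 1.9e-05). Before that it rose by 1.18 ± 0.17 at the softening step, whose softening libraries entered the rule.

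VIT_10s0092g00590 (chromosome 10, 12172334 to 12204513) kept a large difference between the grapes throughout. Danfeng-2 had 618.9, 498.7 and 506.8 CPM at the green stage, 602.7, 581.7 and 588.7 at softening, 639.8, 626.2 and 643.5 at colouring, and 131.8, 119.3 and 129.5 at ripeness. Cabernet Sauvignon had 16.4, 15.9 and 16.3, then 55.7, 50.3 and 67.8, then 7.68, 8.02 and 9.36, and 12.9, 12 and 11.5. Every Danfeng-2 library was above every Cabernet Sauvignon library. The difference was 4.97 ± 0.12 at the green stage (log2, SE) and 3.31 ± 0.11 at ripeness. The rule had used the Danfeng-2 libraries of both stages, so no p is given. Danfeng-2 replicate 1 at colouring lay between its partners.

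VIT_18s0041g00830 (chromosome 18, 25326336 to 25524045), named after its values were seen, was the only member with 0 counts in all libraries of a group. It is a long model that overlaps another. In Cabernet Sauvignon it had 3.44, 2.71 and 3.85 CPM at the green stage, 7.14, 6.09 and 2.98 at softening, 0.128, 0 and 0 at colouring, and 0 in the 3 libraries at ripeness. Set to a floor of 3 counts over that group, the fall from the green stage was at least 51.6-fold; the floor covers counting error only. In Danfeng-2 it had 184.4, 107.3 and 126.0 CPM at the green stage, 221.8, 221.4 and 214.1 at softening, 187.0, 157.9 and 177.1 at colouring, and still 37.0, 16.6 and 27.3 at ripeness. With this member at its floor the medians given above for the span, ripeness and the interaction stayed at -2.56, -0.67 and -0.81.

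**Figure D4:**
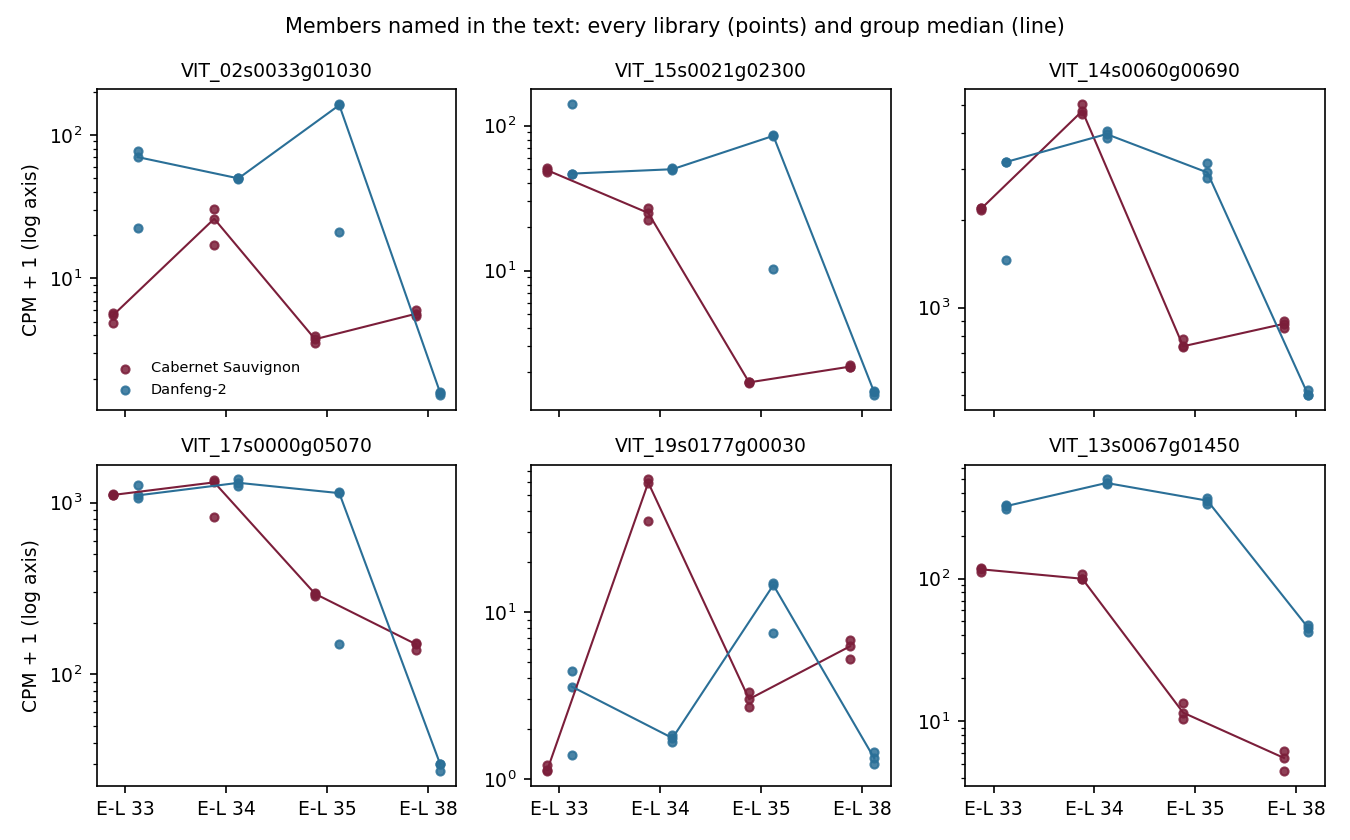
Some of the members named in the text, in every library. The horizontal axis is the stage, the vertical axis CPM + 1 on a log scale; points are libraries and lines join group medians. VIT_17s0000g05070 shows 1134 and 1152 CPM in Danfeng-2 replicates 2 and 3 at colouring and 149.0 in replicate 1, while in VIT_13s0067g01450 the 3 libraries lie together.

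Danfeng-2 colouring replicate 1 had lower levels of the members than its partners. Its median difference from the mean of replicates 2 and 3 was -1.04 on the log2(CPM + 1) scale, and 66 of 122 members (54.1%) were lower by 1 or more and 2 higher by 1 or more. Over the 16385 models with at least 1 CPM the median was 0.00 and 6.10% were lower by 1 or more. In the models of the same early fall in Cabernet Sauvignon the share lower by 1 or more was 21.7% for those that had fallen by colouring in Danfeng-2, 11.5% for those without a fall and 15.6% for the remainder. The members were chosen on a median that this library seldom set: it lay below both partners in 99 members and above both in 19. The rule asks for a high median at colouring, which favours models where a differing library lies below its partners. The shares above are therefore a description and no independent result.

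Along the way from its partners to the ripe mean, replicate 1 had gone a median of 32.0% (quartiles 11.1% and 58.0%). It had gone more than 50% in 39 members and was above its partners in 23. It lay above every ripe library in 121 of 122 members. What set this library apart was not tested. Leaving out the 3 libraries moved the median late fall from -2.96 to -3.00 and the fall in Cabernet Sauvignon from -2.70 to -2.72, and the rule then gave 126 models, 116 of them members.

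The Danfeng-2 plateau rests on replicates 2 and 3 at colouring, and the list of members depends on them. With replicate 2 left out the rule gave 79 models, 60 of them members, and with replicate 3 left out 81, 61 of them members. A total of 47 members were kept whichever library was left out.

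**Figure D5:**
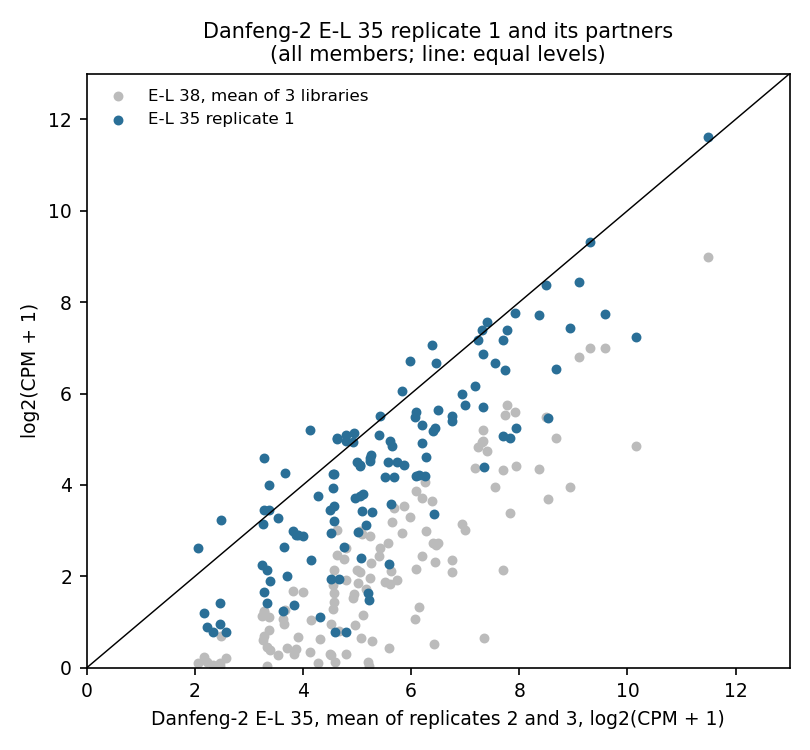
Danfeng-2 colouring replicate 1 against the mean of replicates 2 and 3, both as log2(CPM + 1). Each blue point is 1 of 122 members, grey points give the same member's mean at ripeness, and the line marks equal levels. Of the blue points 66 lie 1 or more below the line, and most lie between the line and the grey points.

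Members were found on all 19 assigned chromosomes, and 7 lay on unassigned sequence. Chromosome 18 held 14 of them, 1.21% of its models with at least 1 CPM, and chromosome 10 held 6 (1.29%), against 0.745% over the genome. Their median length of 1448 bp was near that of the other models with the early fall in Cabernet Sauvignon (1402, 1437 and 1478 bp) and below the 1773 bp of models with at least 1 CPM. Of the 122 members, 21 overlap another model and 2 are newly predicted.

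In 6 places members lay near each other, with starts within 100 kb and mostly with other models between them. How often other models lie so close was not counted. These places held 14 members. The overlapping members VIT_02s0033g01030 and VIT_02s0033g01000 were not among them, because their starts lie further apart. On chromosome 13 from 764444 to 817722, 3 of 9 models were members. Their summed level in Cabernet Sauvignon was 132.5 ± 2.66 CPM (SD, n = 3) at the green stage, 146.0 ± 3.2 at softening, 12.3 ± 1.74 at colouring and 4.69 ± 1.05 at ripeness. In Danfeng-2 it was 363.9 ± 21.1, 521.8 ± 20.4, 403.5 ± 32.0 and 46.8 ± 2.45. The 3 other models there with at least 1 CPM had neither fall of 2 or more.

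VIT_13s0067g01450 (chromosome 13, 817035 to 817722) carried most of that sum and showed little spread between libraries. Danfeng-2 had 328.2, 305.0 and 320.6 CPM at the green stage, 467.3, 494.8 and 462.7 at softening, 331.8, 367.0 and 351.0 at colouring, and 44.0, 45.8 and 41.1 at ripeness. In Cabernet Sauvignon it had 115.0, 117.6 and 109.3, then 97.6, 98.6 and 106.8, then 10.4, 12.3 and 9.25, and 5.16, 4.50 and 3.45 at ripeness. It was higher in Danfeng-2 at the green stage (1.39 ± 0.11, log2, SE), and the difference at ripeness was 3.24 ± 0.12. Both Danfeng-2 groups entered the rule, so no p is given. In Cabernet Sauvignon its span change was -4.46 ± 0.13 (edgeR adjusted p = 1.1e-15). It kept falling after colouring, with a change of -1.22 ± 0.12, for which the colouring libraries had entered the rule.

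On chromosome 18 from 6882098 to 6975437, 3 of 11 models were members. Their summed level in Cabernet Sauvignon was 174.7 ± 4.53 CPM at the green stage, 127.1 ± 1.62 at softening, 15.2 ± 0.814 at colouring and 18.4 ± 1.17 at ripeness, and in Danfeng-2 119.8 ± 11.3, 135.1 ± 0.953, 124.6 ± 21.3 and 13 ± 0.418. Of the 5 other models with at least 1 CPM, 0 had the early fall in Cabernet Sauvignon and 1 the late fall in Danfeng-2. VIT_18s0001g08430 (6892954 to 6910743) gave most of the sum and overlaps another model. Its CPM in Danfeng-2 at colouring was 133.5, 88.1 and 76.7, so that here replicate 1 was the highest, and at ripeness it was 10.8, 11.9 and 11.8. Its span change in Cabernet Sauvignon was -4.30 ± 0.20 (log2, SE, edgeR adjusted p = 7.9e-13).

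VIT_18s0001g08530 (6969443 to 6975437), the last of the 3, stood higher in ripe Cabernet Sauvignon berries than at colouring. It had 12.1, 12.2 and 11.3 CPM at the green stage, 21.6, 20.9 and 16.7 at softening, 4.55, 3.28 and 3.94 at colouring, and 8.83, 9.32 and 8.14 at ripeness. From colouring to ripeness it rose by 1.22 ± 0.31 (log2, SE). The rule asks for a low level at colouring, which favours such a rise, so no p is given. In Danfeng-2 it had 26.3, 16.6 and 19.1, then 16, 16.9 and 16.6, then 6.73, 22.4 and 21.6, and 1.26, 0.818 and 0.758 at ripeness. The difference from Cabernet Sauvignon at that stage was -3.27 ± 0.38, where the rule had used the Danfeng-2 libraries.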

How the data were processed

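Skin mRNA of 2 grapes at 4 stages was sequenced in 3 libraries each. The submitters' processing notes name TopHat2 as a tool, with no version; the sources used here do not give the build, annotation, counting program or strand setting. The count is a whole number per model in the tables the authors deposited; FPKM was also deposited by the authors. The Normalized signal, per the file headers, is not described further and was not used in a test.

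CPM used each library's total count. The members, and the lists planned by product name (not usable, since 0 identifiers matched a name), were chosen with earlier results of these data known, and fewer genes are named than the rule allows. That rule took members with the largest late fall, the highest level, a rise over the span in Cabernet Sauvignon or a rise to colouring in Danfeng-2, those nearest the thresholds, and neighbours. edgeR 4.0.16 in R 4.3.3 fitted 8 groups to 24 libraries (filterByExpr, TMM; 18375 models; common biological coefficient of variation 0.2). Total counts of 13201295 to 23095568 limit low models. The edgeR step was tested on simulated data. Alternatives were RLE factors, other filters and thresholds, limma 3.58.1 with log2(FPKM + 1), DESeq2 1.42.0, a replicate block, a fit to the compared groups, other forms of the rule, and leaving out libraries.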

Additional observations from a re-analysis of the deposited data

Results flagged for a closer look

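By edgeR's interaction contrast the whole-span changes of the 2 grapes were called different in 58 of the 122 members, against 30.6% of all models tested. The rule had used both Danfeng-2 groups of this contrast and favours a steep change there, so the count and the values below are descriptions and not independent results. Among the members named, the difference (Danfeng-2 minus Cabernet Sauvignon, log2) was -6.66 in VIT_02s0033g01030, -7.63 in VIT_19s0177g00030, -3.97 in VIT_18s0001g08530, -2.41 in VIT_17s0000g05070 and -1.67 in VIT_10s0092g00590. It was 2.92 in VIT_13s0019g02130 and 1.85 in VIT_13s0067g01450. In the first 5 the level fell further in Danfeng-2, or rose in Cabernet Sauvignon. VIT_13s0067g01450 fell in both grapes, and further in Cabernet Sauvignon. VIT_13s0019g02130 fell in Cabernet Sauvignon alone, with a mean of 1.39 CPM at the green stage and 1.43 at ripeness in Danfeng-2. For VIT_19s0177g00030 limma on log2(FPKM + 1) gave -3.19.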

How the results depend on the processing

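The number of members depends on the rule's settings. It was 240 with a pseudocount of 0.1 and 49 with 5, 277 with a fall of 1.5 and 53 with 2.5, and 79 to 126 when 1 library was left out (79 without Danfeng-2 colouring replicate 2 and 81 without replicate 3). With TMM-adjusted library sizes it was 90, with FPKM 95 and with the mean of the replicates 82.

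Members called over the span in Cabernet Sauvignon numbered 102 to 111 under all alternatives, beside 107. From colouring to ripeness limma gave 13 in place of 23. From the green stage to softening in Danfeng-2 there were 25, and 16 at an adjusted p below 0.01, 13 with the compared groups alone, 15 with limma and 16 to 32 with 1 library left out (16 without green replicate 1). Between the grapes at the green stage the count was 43, and 67 with no fold minimum. In each case the cause was not tested. Counts without the 3 libraries that stood apart are in the report. For the named members whose test was repeated, the calls kept their side and direction in every other fit and with each library left out. VIT_18s0041g00830 and VIT_18s0001g12880 were not among these. With no fold minimum VIT_13s0019g02130 would count as lower from the green stage to softening in Cabernet Sauvignon (-0.63). The softening libraries had entered the rule, so that call would be a description.

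By the correlation of their deviations from group means, same-numbered libraries were not taken as pairs: over the 28 pairs of groups the values ran from -0.162 to 0.196, and in 0 pairs were all 3 above 0.1. Replicate 1 of Danfeng-2 at the green stage and at colouring had -0.106. With the replicate number as a block, calls were 107, 34, 22, 21, 42, 60 and 56 against 107, 35, 23, 25, 43, 60 and 58, for the 3 comparisons within Cabernet Sauvignon (span, green to softening, colouring to ripe), Danfeng-2 green to softening, the grapes when green and when ripe, and the interaction.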
